A study of Homo sapiens with 6 samples.

Results

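Expression of 10 genes of bone morphogenetic protein (BMP) signalling was examined in A375 human melanoma cells with raised HMGB2. They comprise 4 ligands (GDF6, BMP2, BMP4 and BMP7), 2 receptors (BMPR1A and BMPR2) and the 4 inhibitor of DNA binding genes (ID1, ID2, ID3 and ID4), out of 58302 gene IDs in each count table. The genes were chosen by their place in the pathway with results of these same libraries known, and GDF6 is named by the study as raised in them, so their differences between the groups are given as a description: whether each passes the call rule used for all genes is stated, but no p is printed for any of the 10 and a call among them is not a test. Messenger RNA was sequenced from A375 cells stably carrying an empty vector (EV, 3 libraries) and from A375 cells stably overexpressing HMGB2, a chromatin protein that bends DNA (HMGB2OE, 3 libraries). The lines were made by lentiviral transduction with antibiotic selection, and the promoter that drives HMGB2 is not given in the sources used here. The reporting form of the study calls the 3 replicates of a group technical, so every p below measures the spread between these libraries and not between independent transductions.

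BMP ligands, a branch of the TGFβ superfamily that includes GDF6, are secreted dimers that bring type I receptors such as BMPR1A together with type II receptors such as BMPR2. The type I receptor then phosphorylates SMAD1, SMAD5 and SMAD9, which enter the nucleus with SMAD4 and raise transcription of target genes, of which the ID genes are the best known. ID proteins bind E proteins and keep them, and the lineage factors that pair with them, off DNA. GDF6 acts in the retina, skeleton and neural crest during development, and the neural crest is the embryonic source of melanocytes.

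In HMGB2OE cells GDF6 was 8.80-fold the empty vector level, and ID3, ID1 and BMP4 were also higher, while BMP2 was lower. BMP7, the receptors BMPR1A and BMPR2, and ID2 had higher values in all HMGB2OE libraries but were not called, and ID4 overlapped between the groups. Of the other 72 genes listed for the pathway, the BMP target ATOH8, TGFBR3 and TCF4 rose. Among the extracellular inhibitors FST and NOG fell, FSTL1 rose and 9 were not called. The calls of BMP4, NOG, TGFBR3 and TCF4 were lost in some of the fits that left out 1 library. The plot of the 10 genes by library shows each value.

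**Figure D1:**
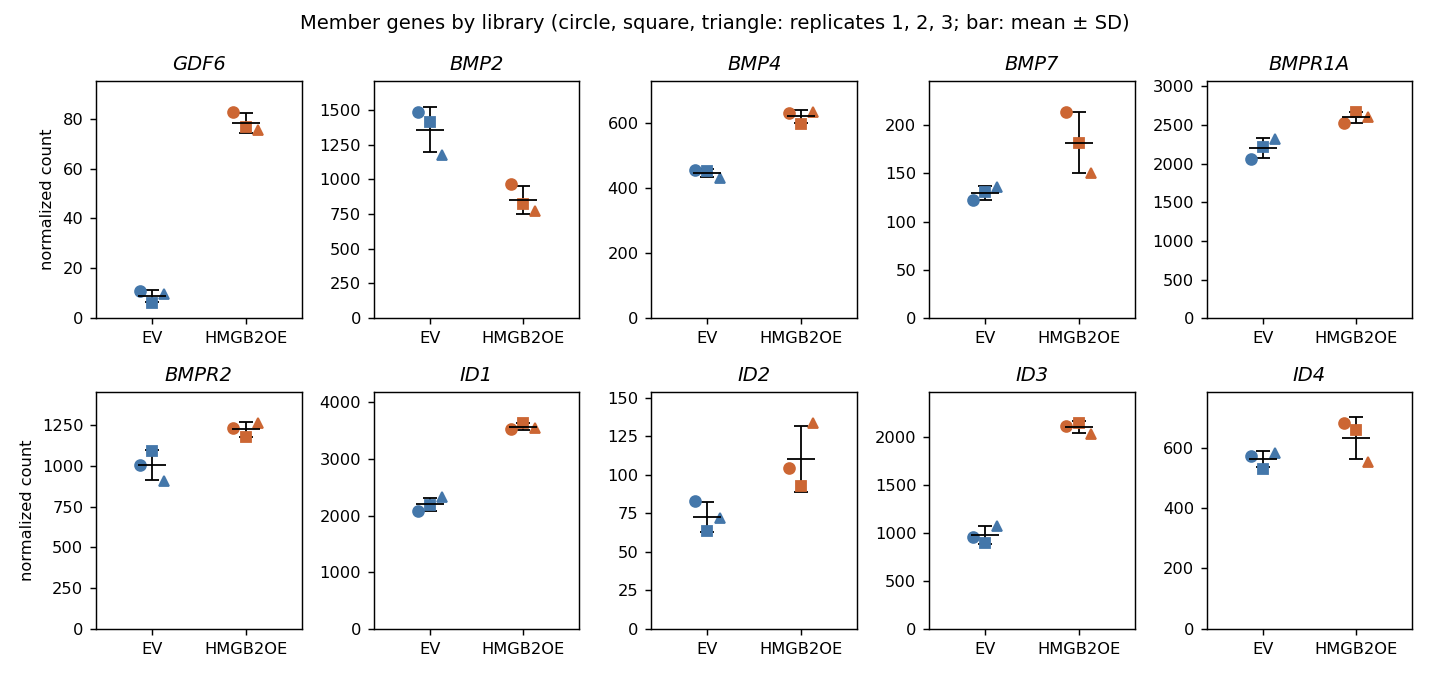
Normalized counts of the 10 genes (y axis, from 0, a separate scale for each gene) in 3 empty vector (EV) and 3 HMGB2OE libraries, with the mean and SD of each group. GDF6 lies at 6.20 to 11.1 in EV and 75.4 to 82.7 in HMGB2OE libraries, and ID4 is the gene whose groups overlap.

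Between 45925053 and 56755212 reads fell in genes per library. HMGB2 itself, the check of the labels, was 7513.5 ± 242.9 normalized counts in EV and 15517 ± 1177 in HMGB2OE libraries (SD, n = 3), with no overlap. Of 8 melanocyte lineage markers, summed at 4877 to 5096 in EV and 5302 to 5624 in HMGB2OE libraries, S100B was at 3346 to 3841 and MITF at 1381 to 1719, while TYR, DCT and MLANA were between 0 and 10.8, and SOX10 was listed at 0 in the count column used, although the strand-specific columns assign it 253416 reads in all. The 12 markers of leukocytes, endothelium, epithelium and smooth muscle summed to 889.4 to 1310 in EV and 1069 to 1373 in HMGB2OE libraries. PTPRC was at 0, and 0 of 8 tested markers were called. Most of the sum came from the epithelial markers KRT14, at 420.6 to 694.4, and EPCAM, at 211.8 to 371.7 over all libraries. CD68, MYH11 and the lineage marker PMEL kept 0.299%, 1.39% and 3.37% of their strand-specific reads, so their low counts do not show absence. The keratin KRT5 was at 5.05 and 11.5 in EV replicates 1 and 2 but at 279.0 in EV replicate 3, which lay with the HMGB2OE libraries at 199.9 to 289.2. Calls of the genes named that differ without that replicate are given with and without it. An adjusted p without EV replicate 3 follows a choice made on the values, so it is a description and not a test. Over all genes, leaving it out raised the calls from 930 to 2854, while leaving out any other library lowered them to between 363 and 475. In bulk RNA, more cells with a transcript and more of it per cell cannot be told apart.

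The sequences just upstream of the ID genes, where general transcription factors assemble, are shown for the called genes ID1 and ID3 beside ID4, which was not called. Each is the 250 bases before the RefSeq start of the gene on hg38, on the strand of the gene, with GTCT (or AGAC, the same letters on the other strand), the core of the SMAD-binding element, in capitals.

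ID1 (chr20:31605039-31605288, plus strand): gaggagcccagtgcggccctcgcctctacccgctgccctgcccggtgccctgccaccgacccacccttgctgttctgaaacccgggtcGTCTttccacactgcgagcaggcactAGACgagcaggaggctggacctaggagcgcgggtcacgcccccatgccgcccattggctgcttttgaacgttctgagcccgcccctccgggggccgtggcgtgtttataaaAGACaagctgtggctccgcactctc
ID3 (chr1:23559502-23559751, minus strand): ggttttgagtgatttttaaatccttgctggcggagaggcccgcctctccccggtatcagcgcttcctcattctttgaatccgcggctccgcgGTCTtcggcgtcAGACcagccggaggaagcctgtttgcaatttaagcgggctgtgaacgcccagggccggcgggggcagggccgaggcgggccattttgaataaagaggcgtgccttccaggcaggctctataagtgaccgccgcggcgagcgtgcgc
ID4 (chr6:19837120-19837369, plus strand): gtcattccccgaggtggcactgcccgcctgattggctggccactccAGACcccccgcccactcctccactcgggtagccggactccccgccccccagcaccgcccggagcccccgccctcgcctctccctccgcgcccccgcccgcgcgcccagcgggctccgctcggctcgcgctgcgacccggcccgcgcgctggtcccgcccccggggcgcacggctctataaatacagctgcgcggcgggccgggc

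GTCT was found 3 times before ID1, at 162, 136 and 25 bases from the start. It was found 2 times before ID3, 2 times before ID2 and 1 time before ID4. The letters are common, since 77.5% of 35116 RefSeq windows of 250 bases hold at least 1 GTCT on either strand. GGCGCC, a GC-rich SMAD element, was in none of these 4 windows and in 16.4% of all windows. TATAAA, the letters of the TATA box, lay 29 bases before the start of ID4 and at 31 (plus strand) and 33 bases (minus strand, the same letters overlapping) before ID1, and was in neither the ID3 nor the ID2 window, against 10.7% of all windows. CCAAT was present 3 times before ID2 and 1 time each before ID1 and ID4, but not before ID3, and in 32.0% of all windows. A match is a description of the sequence and not a site of binding, and GTCT did not separate the called genes from the others, being present in all 4 windows.

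Among the ligands, GDF6 (chromosome 8, 96142333 to 96160806, minus strand, hg38) had raw counts of 11, 7 and 9 in EV replicates 1, 2 and 3 and of 91, 78 and 67 in HMGB2OE replicates 1, 2 and 3. As normalized counts, divided by the size factor of each library, these were 11.1, 6.20 and 9.66 against 82.7, 76.8 and 75.4. The groups were far apart and the HMGB2OE libraries lay close together, whereas the EV values rest on few reads. The log2 fold change was 3.14 with a standard error (SE) of 0.40, and its 95% interval ran from 2.36 to 3.92. No 50-base word of the GDF6 transcript occurs in another gene, and none of its reads were lost to a gene on the other strand.

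BMP2 (chromosome 20, 6767686 to 6780246, plus strand), a ligand that prefers type I receptors such as BMPR1A, went the other way. It was at 1485.0, 1410 and 1177 normalized counts in EV and at 962.9, 822.4 and 769.8 in HMGB2OE libraries. Each HMGB2OE library was below each EV library, and the lowest EV value was in replicate 3. The log2 fold change was -0.67 (SE 0.14, 95% interval -0.95 to -0.39).

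BMP4 (chromosome 14, 53949736 to 53958761, minus strand), the closest relative of BMP2 in sequence, was higher. Its normalized counts were 456.6, 453.5 and 432.5 in EV and 630.4, 597.9 and 634.7 in HMGB2OE libraries, with little spread within either group. The log2 fold change was 0.47 (SE 0.12, 95% interval 0.24 to 0.71). With 1 library left out BMP4 kept a log2 fold change of 0.45 to 0.50, but it was called only when the library left out was EV replicate 3.

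BMP7 (chromosome 20, 57168753 to 57266641, minus strand), which signals mainly through other type I receptors, was at 122.2, 130.2 and 136.3 in EV and 213.5, 181.2 and 150.8 normalized counts in HMGB2OE libraries. The groups did not overlap, but the HMGB2OE libraries spread over a range wider than the gap between the groups. The log2 fold change of 0.49 (SE 0.20, 95% interval 0.09 to 0.89) was not called.

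The receptors differed by less than the ligands. BMPR1A, a type I receptor (chromosome 10, 86756596 to 86932825, plus strand), was at 2066, 2221 and 2316 normalized counts in EV and 2529, 2670.2 and 2601 in HMGB2OE libraries, with a log2 fold change of 0.24 (SE 0.10, 95% interval 0.04 to 0.44). BMPR2, the type II receptor specific to BMP ligands (chromosome 2, 202376327 to 202567751, plus strand), was at 1008, 1093 and 910.1 in EV and 1235, 1177 and 1266 in HMGB2OE libraries, with a log2 fold change of 0.29 (SE 0.12, 95% interval 0.06 to 0.52). Neither gene overlapped between the groups and neither was called. BMPR1A was called without EV replicate 3, at a log2 fold change of 0.28, and both receptors were called with a model term for the third replicates of both groups, at 0.24 and 0.29. The value of BMPR1A is less certain than the others, because 12.9% of its 50-base words also occur in other genes, chiefly the pseudogene BMPR1AP1.

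The ID genes differed from one another. ID1 (chromosome 20, 31605283 to 31606515, plus strand), which binds E proteins in many cell types, was at 2086, 2189 and 2324.5 normalized counts in EV and at 3533, 3643 and 3545 in HMGB2OE libraries. The gap between the groups was several times the spread within them, and the log2 fold change was 0.70 (SE 0.10, 95% interval 0.51 to 0.89). ID3 (chromosome 1, 23557926 to 23559501, minus strand), a close paralogue, was at 960.7, 893.8 and 1075 in EV and 2118, 2148 and 2028 in HMGB2OE libraries. ID3 was thus the ID gene with the largest fold, at a log2 fold change of 1.10 (SE 0.11, 95% interval 0.88 to 1.33).

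ID2 (chromosome 2, 8678845 to 8684461, plus strand) was low in these cells, at 82.8, 63.8 and 71.9 normalized counts in EV and 104.5, 92.6 and 133.9 in HMGB2OE libraries. The groups did not overlap, yet the distance between the highest EV and the lowest HMGB2OE library was small beside the spread, and the log2 fold change of 0.60 (SE 0.25, 95% interval 0.10 to 1.09) was not called. ID4 (chromosome 6, 19837370 to 19842197, plus strand), the ID protein most divergent from the others, was at 572.8, 530.6 and 580.6 in EV and 682.2, 657.9 and 553.7 in HMGB2OE libraries. HMGB2OE replicate 3 lay within the EV range, and the log2 fold change of 0.17 had a 95% interval from -0.10 to 0.44.

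A gene was called at an adjusted p under 0.05 (Benjamini-Hochberg over all genes tested, DESeq2). By that rule 5 of the 10 genes were called, 4 higher and 1 lower, against 4.94% of the 18836 genes tested, of which 2.29% were called higher and 2.64% lower. In 8 of the 10 every HMGB2OE library was above every EV library and in 1 every one was below, against 11.4% of 16692 genes above and 11.4% below. Since the genes were chosen with this contrast known, nothing is read from these shares. The median log2 fold change was 0.48 over the 10 genes and 0.00 over all genes tested.

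**Figure D2:**
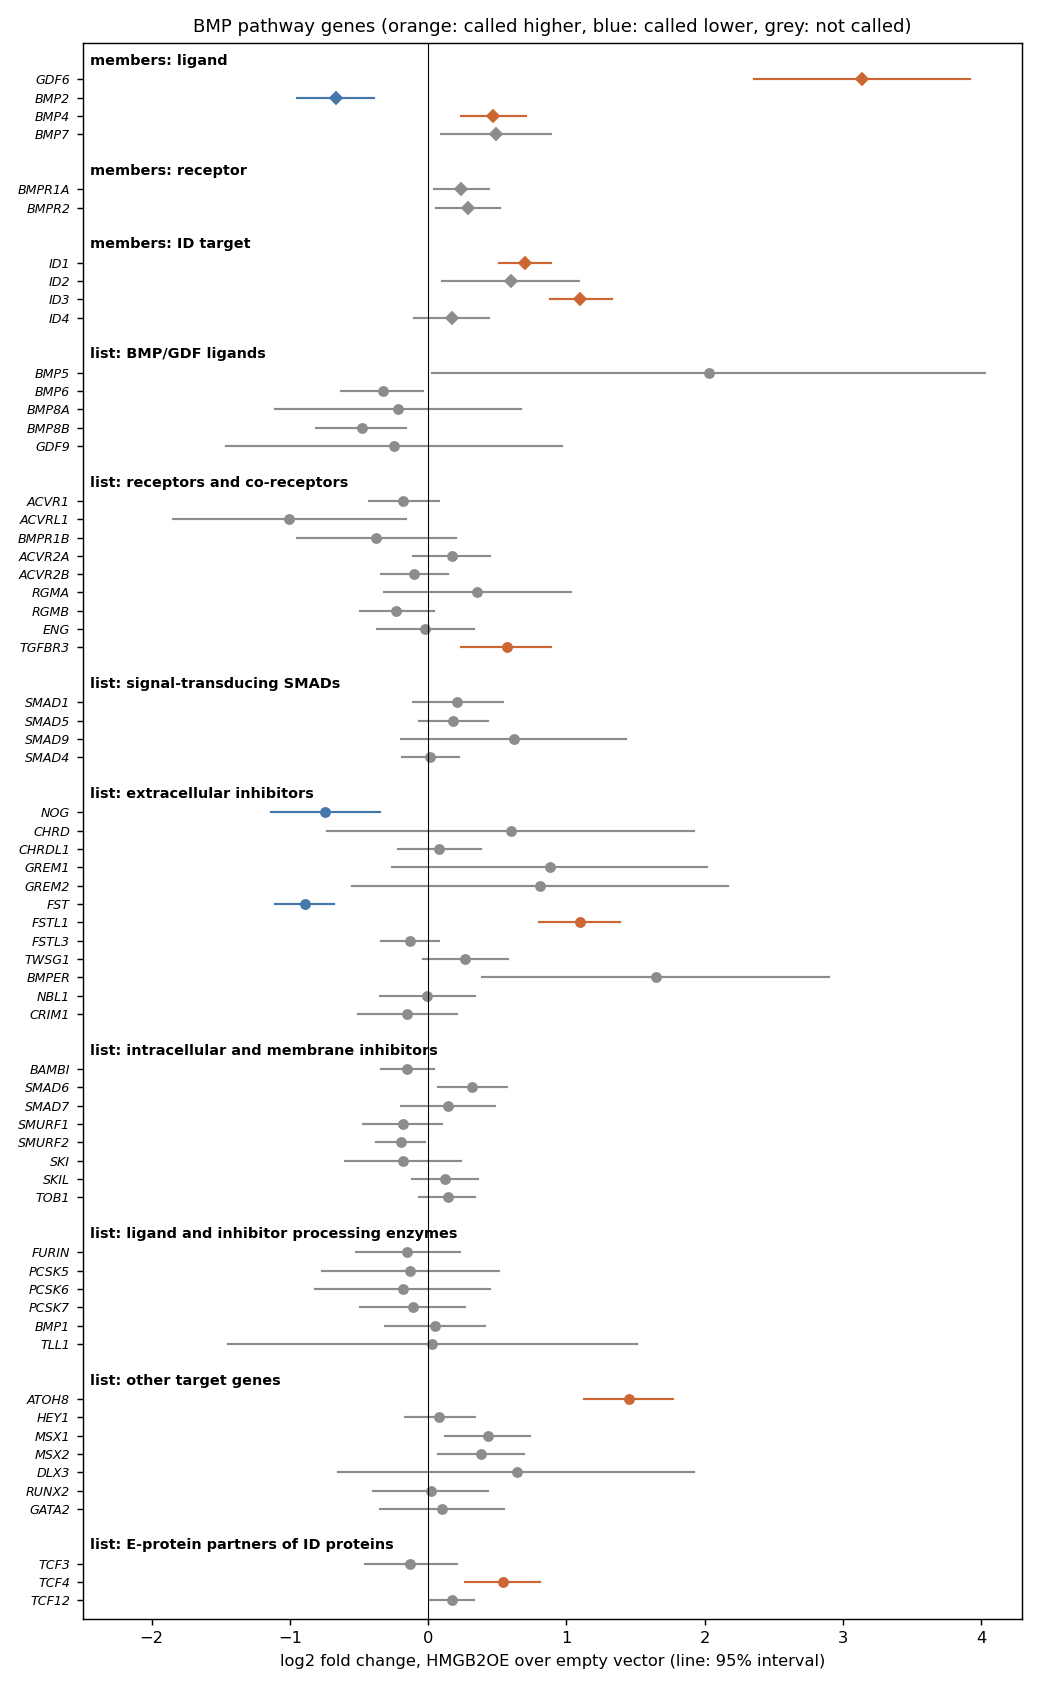
Log2 fold change of HMGB2OE over empty vector (x axis) with its 95% interval for the 10 genes (diamonds) and the 54 other pathway genes that received an adjusted p (circles), by role. GDF6 at 3.14 lies to the right of all genes called, and the called genes that fell are BMP2, FST and NOG.

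The levels of the 10 genes were compared with one another as TPM, the count per kilobase of exon scaled to the same total in every library. In EV cells ID1 stood at 129.5 ± 2.16 TPM, ID3 at 47.3 ± 2.86, BMP2 at 27.9 ± 4.45 and BMPR1A at 15.9 ± 0.445 (SD, n = 3). ID4 at 10.5 ± 0.514 and BMP4 at 10.5 ± 0.762 overlapped. Below them came BMPR2 at 5.85 ± 0.739, ID2 at 2.40 ± 0.365, BMP7 at 1.73 ± 0.0408 and GDF6 at 0.176 ± 0.0508 TPM. The other neighbours in this order did not overlap over the 3 libraries.

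In HMGB2OE cells ID1 at 206.6 ± 12.2 TPM and ID3 at 92.4 to 106.9 TPM again came first and GDF6, at 1.5 ± 0.105 TPM, again last. BMPR1A at 18.4 ± 1.16 and BMP2 at 17.1 ± 2.27 now overlapped, and BMP4 at 14.3 ± 0.270 stood above ID4 at 11.6 ± 1.64. GDF6, the gene of the 10 with the largest fold change, was therefore the one with the lowest level in both groups.

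The 18 BMP and GDF ligand genes listed, these 4 included, summed to 92.5, 89.4 and 66.4 TPM in EV and 69.5, 68.9 and 59.5 TPM in HMGB2OE libraries. The sums overlapped, with EV replicate 3 lying below 2 of the HMGB2OE libraries. Within the sum GDF6 made up 0.138% to 0.271% in EV and 2.24% to 2.33% in HMGB2OE libraries. BMP4 made up 12% to 14.5% and then 20.8% to 23.5%, while BMP2 made up 32.9% to 34.6% and then 24.9% to 27.8%. BMP7 made up 1.83% to 2.61% and then 3.18% to 4.03%. For each of the 4 ligands the shares did not overlap between the groups. BMP8B, which is expressed in brown fat and germ cells, was the other main ligand transcript, at 33.8% to 39.8% and 31.7% to 34.3%. The ligand composition thus differed while the summed level overlapped.

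**Figure D3:**
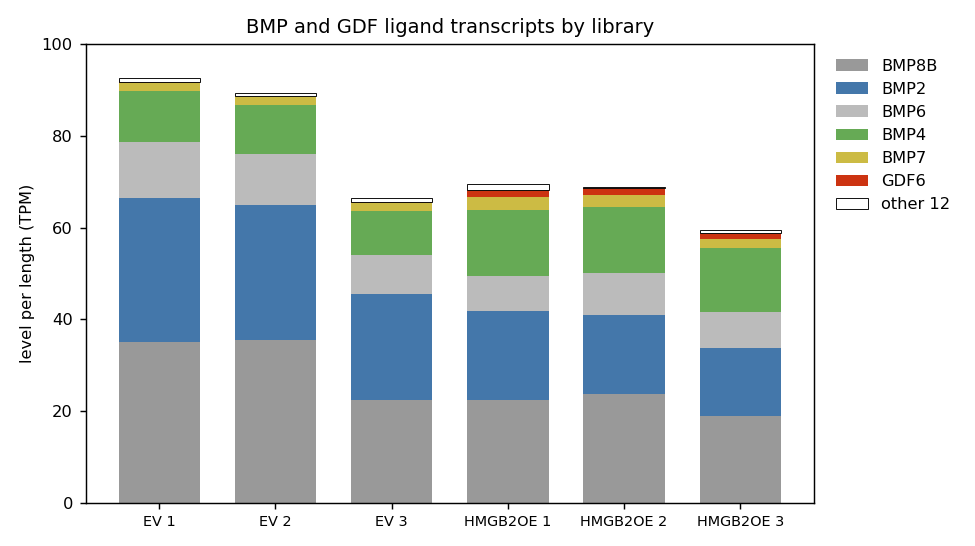
Level per length (TPM, y axis, from 0) of BMP and GDF ligand transcripts in each library, stacked by gene, with 12 further ligands together at the top. GDF6 is the thin red band, at most 0.271% of the EV sums and at least 2.24% of the HMGB2OE sums.

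The 4 ID genes together stood at 189.2, 187.6 and 192.5 TPM in EV and 320.5, 342.5 and 302.2 TPM in HMGB2OE libraries, with no overlap. ID1 gave 67.2% to 69.9% of that sum in EV and 63.6% to 64.8% in HMGB2OE libraries. ID3 gave 23.5% to 25.8% in EV and 30.6% to 31.4% in HMGB2OE libraries, so the shares of both genes separated the groups. ID2 gave at most 1.49% in any library.

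The other 72 genes of the pathway were listed by role. Counts were found for 62, 54 received an adjusted p, and of these 4 rose, 2 fell and 48 were not called, against 4.94% called over all genes. Their median log2 fold change was 0.04. Leaving out EV replicate 3 raised the number called to 16 of 49, against 17.8% of all genes tested in that fit. Leaving out EV replicate 1, HMGB2OE replicate 1 or HMGB2OE replicate 2 lowered it to 3. Over all genes those fits called 363 of 18469, 441 of 17706 and 475 of 18445 tested.

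ATOH8, a basic helix-loop-helix factor known as a target of BMP receptors in endothelial and liver cells, rose. It was at 130.3, 132.0 and 124.5 normalized counts in EV and 319.7, 374.3 and 364.6 in HMGB2OE libraries, without overlap. The log2 fold change was 1.45 (SE 0.17, adjusted p = 1.36e-15 by DESeq2). It was the only 1 called of the 7 tested genes that were listed as targets outside the ID family. MSX1, a homeobox target in the neural crest, had a log2 fold change of 0.43 (adjusted p = 0.101 by DESeq2) with no overlap. HEY1 had 0.08, also with no overlap, and GATA2 had 0.10. In 4 of the 7 every HMGB2OE library was above every EV library, against 11.4% of 16692 genes averaging at least 10 normalized counts. The 250 bases before ATOH8 hold no GTCT and no GGCGCC.

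Of 12 tested extracellular inhibitors, 2 fell and 1 rose. FST, follistatin, which binds activins and some BMP ligands, was at 14382, 14395 and 13200.3 normalized counts in EV and 8286, 7484 and 6813 in HMGB2OE libraries. Every HMGB2OE library was well below every EV library, and the log2 fold change was -0.89 (SE 0.11, adjusted p = 7.38e-13 by DESeq2). NOG, noggin, which holds BMP ligands away from their receptors, was at 259.6, 200.2 and 230.7 in EV and 134.4, 116.2 and 160.9 in HMGB2OE libraries. It fell with a log2 fold change of -0.75 (SE 0.20, adjusted p = 0.00748 by DESeq2), but the call was lost without EV replicate 1 (adjusted p = 0.223), HMGB2OE replicate 1 (0.12) or HMGB2OE replicate 2 (0.175), and by edgeR (0.054).

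FSTL1, a secreted glycoprotein that can bind BMP4, rose from 548.5, 517.3 and 668.6 normalized counts in EV to 1323.5, 1078.5 and 1302 in HMGB2OE libraries, a log2 fold change of 1.10 (SE 0.15, adjusted p = 1.1e-10 by DESeq2). Its counts kept 84.5% of the reads that the strand-specific columns assign, the rest being shared with an overlapping gene. FSTL3, CRIM1 and TWSG1, the most abundant of the inhibitors not called, had log2 fold changes of -0.13, -0.15 and 0.27. Without EV replicate 3, CRIM1 was called at -0.33 (adjusted p = 0.0277 by DESeq2) and TWSG1 at 0.43 (adjusted p = 0.00253), and TWSG1 was also called over all 6 libraries with a term for the third replicates (0.28, adjusted p = 0.000781). Named after their values were seen, GREM1 and BMPER were the inhibitors in which EV replicate 3 stood apart. GREM1 was at 150.5, 122.2 and 422.8 in EV and 379.7, 355.6 and 542.5 in HMGB2OE libraries, and was called without EV replicate 3 (log2 fold change 1.64, adjusted p = 1.62e-12 by DESeq2) but not over all 6 libraries by group alone (0.88, adjusted p = 0.552). With a term for the third replicates GREM1 was called over all 6 libraries, at 1.06 (adjusted p = 1.93e-06 by DESeq2). BMPER was at 4.04, 3.54 and 15.0 in EV and 20.9, 20.7 and 28.1 in HMGB2OE libraries, with an adjusted p of 0.00781 without EV replicate 3 and 0.134 with it in DESeq2.

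Among 9 tested receptors and co-receptors, 1 rose. TGFBR3, betaglycan, a co-receptor that presents TGFβ superfamily ligands, was at 172.7, 193.1 and 168.5 normalized counts in EV and 279.8, 240.3 and 272.4 in HMGB2OE libraries. The groups were separate, with a log2 fold change of 0.57 (SE 0.17, adjusted p = 0.0193 by DESeq2). The call was lost when any 1 library other than EV replicate 3 was left out, with adjusted p from 0.0968 to 0.327, and by edgeR (adjusted p = 0.0552). ENG, ACVR1 and RGMB, the most abundant of those not called, had log2 fold changes of -0.02, -0.18 and -0.23.

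None of the 4 SMADs that carry the signal was called over all libraries. SMAD5 had a log2 fold change of 0.18, SMAD4, the common partner, 0.01, and SMAD1 0.21, the last from counts that kept 55.6% of its strand-specific reads. SMAD5 was called without EV replicate 3, at 0.27 (adjusted p = 0.0341 by DESeq2). None of the 5 further ligands tested was called over all libraries either. BMP8B was at 2243, 2323.5 and 1568 normalized counts in EV and 1518, 1533 and 1335 in HMGB2OE libraries, all HMGB2OE values below all EV values. Its log2 fold change was -0.48 (adjusted p = 0.0603 by DESeq2), and without EV replicate 3 it was called, at -0.64 (adjusted p = 7.04e-08). BMP6 was at 618.2, 560.7 and 472.2 in EV and 407.8, 466.9 and 437.8 in HMGB2OE libraries, with an adjusted p of 0.25 over all libraries and 0.0184 without EV replicate 3 in DESeq2. BMP8A, with a log2 fold change of -0.22, kept 36.6% of its strand-specific reads.

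None of the 8 intracellular and membrane inhibitors and none of the 6 processing enzymes was called over all libraries. SMURF2, SKI and TOB1 had log2 fold changes of -0.20, -0.18 and 0.14, and the proprotein convertase FURIN, BMP1 and PCSK7 had -0.15, 0.05 and -0.11. Without EV replicate 3, SKI was called at -0.39 (adjusted p = 0.0313 by DESeq2), FURIN at -0.35 (adjusted p = 0.0109) and the ubiquitin ligase SMURF1 at -0.30 (adjusted p = 0.0341, against 0.66 with it). Among the 3 E proteins that ID proteins bind, TCF4 rose from 384.9, 381.8 and 329.5 normalized counts in EV to 555.0, 544.7 and 498.6 in HMGB2OE libraries. Its log2 fold change was 0.54 (SE 0.14, adjusted p = 0.00339 by DESeq2), and the call was lost without EV replicate 1 (adjusted p = 0.0549), HMGB2OE replicate 1 (0.158) or HMGB2OE replicate 2 (0.122). TCF12, the most abundant, was higher in all HMGB2OE libraries by a log2 fold change of 0.17 (adjusted p = 0.315), and TCF3 had -0.13.

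GDF6 was next compared with the genes around it. Distances were taken between the lowest coordinates of the genes, whatever their strand, and not between transcription starts. The 3 nearest protein-coding genes toward lower coordinates were TP53INP1, PLEKHF2 and CFAP418, at -1216.4, -1026.7 and -897.4 kb from GDF6. Toward higher coordinates they were UQCRB, MTERF3 and PTDSS1, at 80.6, 97.1 and 119.6 kb. None of the 6 was called. UQCRB, a subunit of respiratory complex III and the nearest, had a log2 fold change of 0.20 (SE 0.11, adjusted p = 0.402 by DESeq2), and TP53INP1, a p53-induced stress protein, had 0.51 (SE 0.25, adjusted p = 0.315). The counts of UQCRB kept 60.7% of its strand-specific reads. The 95% intervals of the other 4 all included 0 and none of the 6 reached that of GDF6.

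**Figure D4:**
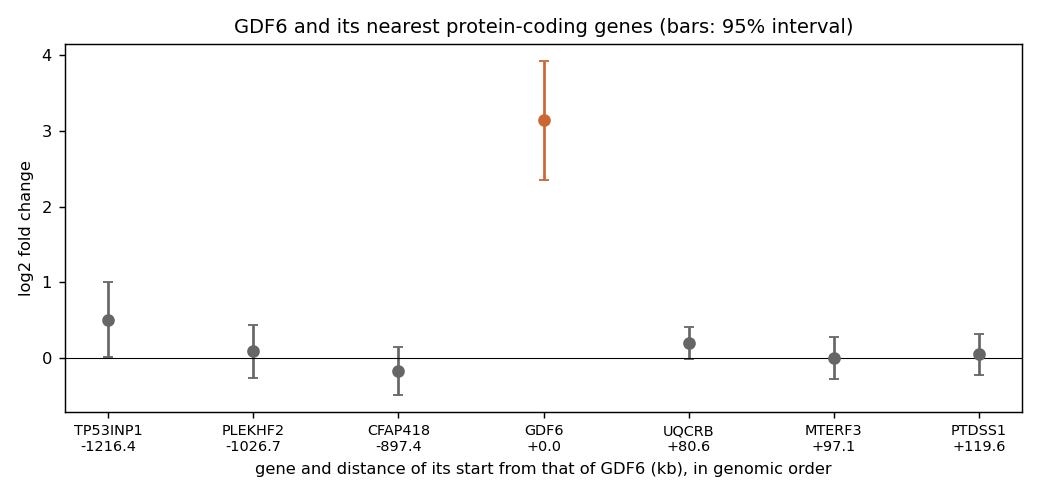
Log2 fold change of HMGB2OE over empty vector with its 95% interval (y axis) for GDF6 and the 3 nearest protein-coding genes on either side, in genomic order and evenly spaced. The distance of each start from that of GDF6 is given in kb, a start being the lowest coordinate of the gene on either strand. GDF6 is at 3.14 and its neighbours are between -0.17 and 0.51.

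The genes whose pattern over the 6 libraries was most like that of GDF6 were SH3GL2, MAGEA1 and PLXDC2. Likeness was the root mean square distance in log2(normalized count + 1) after centring each gene, over 13333 genes averaging at least 50 normalized counts, and was 0.31, 0.32 and 0.52 for these 3. SH3GL2, endophilin A1 of synaptic vesicle endocytosis, averaged 16.2 in EV and 198.0 in HMGB2OE libraries. MAGEA1, a cancer-testis antigen, averaged 42.9 and 250.3, and PLXDC2, a membrane protein, 25.0 and 112.9. With 6 libraries in 2 groups, this ranking largely orders genes by the size of their difference between the groups. The mean of 50 was taken over all 6 libraries. These 3 genes, all below 50 in EV cells, passed it only through their HMGB2OE values, so the likeness is a description.

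Across 14 other ways of fitting the data the 10 genes kept their direction. GDF6 ranged from 2.91 to 3.32 on the log2 scale, BMP2 from -0.77 to -0.61, ID1 from 0.66 to 0.75 and ID3 from 1.04 to 1.2, and all 4 were called in each fit. BMP7, ID2 and ID4 were called in none. Between 4 and 6 of the 10 were called when 1 library was left out. Over all genes those fits called from 363 of 18469 tested (without EV replicate 1) to 2854 of 16062 (without EV replicate 3).

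**Figure D5:**
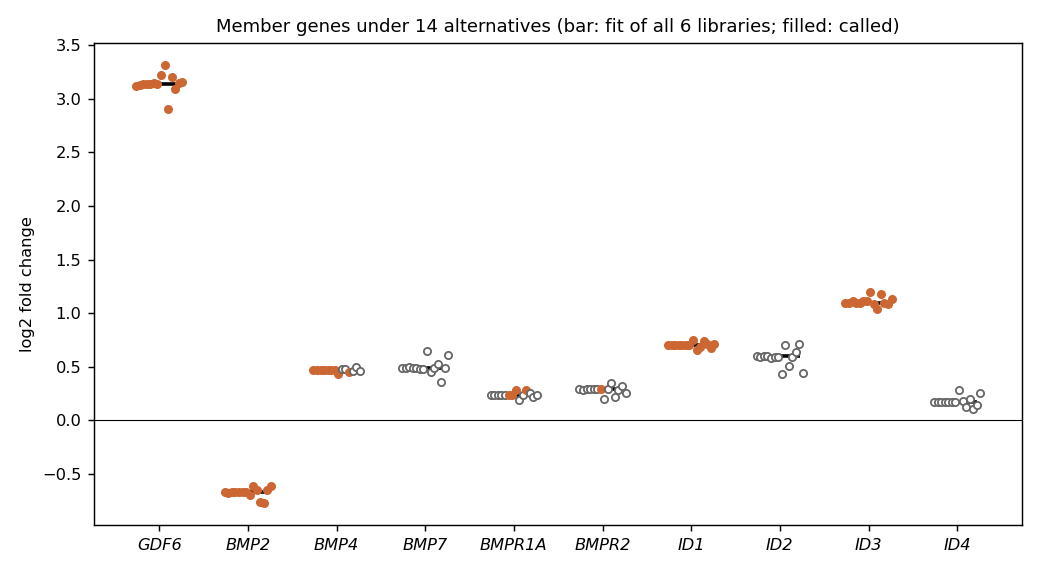
Log2 fold change of HMGB2OE over empty vector (y axis) of each of the 10 genes in the fit of all libraries (bar) and in 14 alternatives (points, filled where the gene was called). GDF6, BMP2, ID1 and ID3 are filled throughout, BMP4 in part, and no gene crosses 0.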

How the data were processed

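Poly(A)-selected RNA of 3 EV and 3 HMGB2OE libraries was prepared with a kit that does not mark strand. The authors trimmed reads with Trimmomatic, aligned them to GRCh38 with STAR and deposited raw read counts per gene, 58302 IDs and 4 summary lines per library; aligner version and annotation release are not given in the sources used here. The count column for both strands was used, in which reads shared by overlapping genes are set aside as ambiguous (10.7% to 11.4% of reads). Multimapped reads (2.58% to 10.6%, highest in HMGB2OE replicate 3) are counted for no gene. Symbols came from GENCODE 44 on hg38 (57532 IDs matched). TPM was computed from these counts and the union of exons.

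DESeq2 1.42.0 in R 4.3.3 compared the groups by its Wald test at default settings. A call is a Benjamini-Hochberg adjusted p under 0.05 over the 18836 genes left of 32925 by the independent filter (mean normalized count 4.436). Folds are unshrunken, and 95% intervals are 1.96 SE either side. Normalized counts are counts divided by size factors.

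The members, lists and alternatives were chosen with earlier results of these data known. Named were the members, HMGB2, the called pathway genes with up to 3 more of the highest mean per role, 3 coding neighbours of GDF6 per side and its 3 closest patterns. Overlap shares used genes averaging at least 10 normalized counts. Alternatives were edgeR 4.0.16 with TMM, DESeq2 with TMM factors, a minimum of 10 counts in 3 libraries, no independent filter, summed stranded columns, the replicate block, a term for the third replicates, replicates 1 and 2 alone, and each library left out. Upstream windows came from RefSeq (GRCh38.p14) and matched hg38.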

Additional observations from a re-analysis of the deposited data

How the results depend on the processing

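Of 238 gene values (17 genes, 14 alternatives) 214 kept their call, 19 lost it, 5 gained it and 0 turned direction. The 17 genes were the 10 members, HMGB2 and the 6 pathway genes called in the main fit. No other pathway gene was in this tally, so calls gained among the others are not counted in it. Over all genes, 930 of 18836 tested were called. By edgeR 470 of 16754 were called, with the term for the third replicates 2733 of 15777, and with replicates 1 and 2 alone 2621 of 15028. Leaving out 1 library gave 363 of 18469 (without EV replicate 1) to 2854 of 16062 (without EV replicate 3), and the cause was not tested. For the pathway list, 6 were called, with 14 under the term for the third replicates (MSX1, TCF12, SMURF2, SMAD6 and BMPER among those gained), 15 with replicates 1 and 2 alone, and 3 (without EV replicate 1, HMGB2OE replicate 1 or HMGB2OE replicate 2) to 16 (without EV replicate 3) with 1 library left out. With the replicate block, 1826 of 14552 genes tested were called, with 9 of 46 tested in the list and 6 of the 10 members (BMPR1A added). The list genes were the 6 called above plus BMP8B, GREM1 and TWSG1, the last 3 at adjusted p of 0.000146, 2.86e-05 and 0.00957 in DESeq2. Same-numbered libraries correlated at 0.0906, 0.142 and 0.349 in their deviations from group means. The value of the third replicates, 0.349, was the highest of any pair. Against replicates 1 and 2 of the other group the third replicates correlated at -0.272 to -0.137. Deviations from a group mean cancel out within the group. These negative values therefore follow in part from the positive value of the third replicates and are not a separate observation. EV replicate 1 was closest to HMGB2OE replicate 2 (0.212), so the numbers were not taken as a pairing, and the term for the third replicates was an alternative. Few reads limit GDF6 in EV cells, and reads lost to overlapping genes limit SMAD1, RGMB, BMP8A and GDF9. UQCRB, PCSK7, SMURF1 and ENG also lost reads, keeping 60.7%, 66.3%, 72.1% and 73.2% of their strand-specific reads.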
